A study of Mus musculus with 10 samples.

Results

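The accessible chromatin of 9 genes of JAK-STAT signalling was examined in ATAC-seq peak lists of mouse haematopoietic stem and progenitor cells (HSPCs). The genes are the feedback inhibitors Socs1, Socs2, Socs3 and Cish, the kinases Jak2 and Pim1, and the transcription factors Stat3, Stat5a and Stat5b. ATAC-seq marks open chromatin by the insertions of the Tn5 transposase. Peaks of the 8 HSPC libraries on chromosomes 1 to 19 and X were merged wherever they shared 1 bp, which gave 103446 regions. A region belonged to one of the 9 genes when its midpoint lay in that gene, or when that gene was the nearest protein-coding gene within 100 kb. This gave 105 regions, of which 17 belonged to Stat5b, 15 to Pim1, 14 each to Socs2 and Socs3, 13 to Jak2, 11 to Stat3, 9 to Socs1, 8 to Cish and 4 to Stat5a.

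The cells were lineage-negative bone marrow cells of C57BL/6 mice, and 4 genotypes gave 2 biological replicates each. WT mice carried no named allele. Npm1c mice were Npm1flox-cA/+;Mx1-Cre+, that is, heterozygous for a conditional frameshift allele of nucleophosmin. Flt3-ITD mice were Flt3ITD/+, heterozygous for an internal tandem duplication of the receptor FLT3 that makes it signal without ligand. The double mutant (DM) mice were Npm1flox-cA/+;Flt3ITD/+;Mx1-Cre+. Mx1-Cre is driven by an interferon-inducible promoter that is active in many tissues and is carried by the Npm1c and DM libraries alone, so that an effect of Npm1c cannot be told apart from one of Mx1-Cre. Neither the animals nor their age are named, nor whether a library came from 1 animal or a pool.

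In this pathway, cytokine receptors activate Janus kinases such as JAK2, which phosphorylate STAT proteins. The phosphorylated STATs form dimers, enter the nucleus and bind the palindrome TTCNNNGAA at target genes. CIS (encoded by Cish) and the SOCS proteins are induced by STATs and feed back on receptor and kinase, and PIM1 is a survival kinase whose gene STAT5 also induces. FLT3-ITD, unlike the normal receptor, activates STAT5 strongly, and Cish, Socs2 and Pim1 are known targets of STAT5 in blood cells.

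The lists held between 43825 (Flt3-ITD replicate 1) and 80916 peaks (WT replicate 1), with no height or read count, so that a region is either called or not called in a library, and the number of reads behind a list is unknown. With 2 libraries on each side the smallest exact two-sided p is 0.333, and no region was tested that way. Of markers, the stem and progenitor list (9 genes with 131 regions) had between 72 and 97 called regions in WT and Npm1c libraries and between 39 and 58 in Flt3-ITD and DM libraries. Cd34 and Kit had called regions in all 8 libraries. The monocyte and dendritic list (6 genes, 82 regions) had 51 and 73 called regions in DM and between 17 and 28 in the other 6 libraries. Of the neutrophil markers Ly6g and Ngp had no region, and of the B and T cell markers Cd79a and Cd3g had none. The erythroid list (6 genes, 18 regions) had between 9 and 17 called regions outside DM and 9 and 6 in DM. The B cell list had 14 and 25 called regions of 29 in DM and between 5 and 11 elsewhere. The neutrophil list (9 genes, 26 regions) had 16 and 16 in DM and between 9 and 23 elsewhere, the T and NK cell list 5 and 9 of 11 in DM and between 3 and 6 elsewhere, and the stroma and endothelium list 24 and 31 of 43 in DM and between 14 and 29 elsewhere. The monocyte and B cell regions move with the DM genotype, and their part in the results below was not tested. In such bulk samples a change in the share of a cell type and a change within cells cannot be told apart.

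Reference sequence was matched for 8 of the 9 genes, in 11 windows from 250 bases before to 50 after an annotated start site (RefSeq, GRCm38.p6), and Socs2 has no window. TTCNNNGAA, which reads the same on both strands, occurred in the windows of Cish and Socs3, and in 8.30% of all 32851 windows. The Cish window held 2 matches, as did 0.457% of all windows. They are shown because they lie in a region called in all 8 libraries, at the start site of Cish, with capitals marking the matches. The first begins at the start site itself (chr9:107296654-107296683, plus strand) and the second 11 bases further on.

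Cish: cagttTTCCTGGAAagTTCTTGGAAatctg
Socs3: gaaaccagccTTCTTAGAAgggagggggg
Socs1: cttgccgGAAAGAGAAACCGAAAgcggggg

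The Socs3 match (chr11:117969502-117969530, minus strand) begins 154 bases upstream of the start site. The Socs1 stretch (chr16:10785597-10785626, minus strand) is shown because it holds 2 overlapping copies of GAAA, any 2 bases and GAAA again, the core that interferon-response factors bind, which begin 83 and 77 bases upstream of the start site. That motif was searched on both strands after the sequences had been seen, and 3.44% of all windows hold it. All 3 windows lie within regions called in every library, so none of these matches is in a region whose call differed between libraries.

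**Figure D1:**
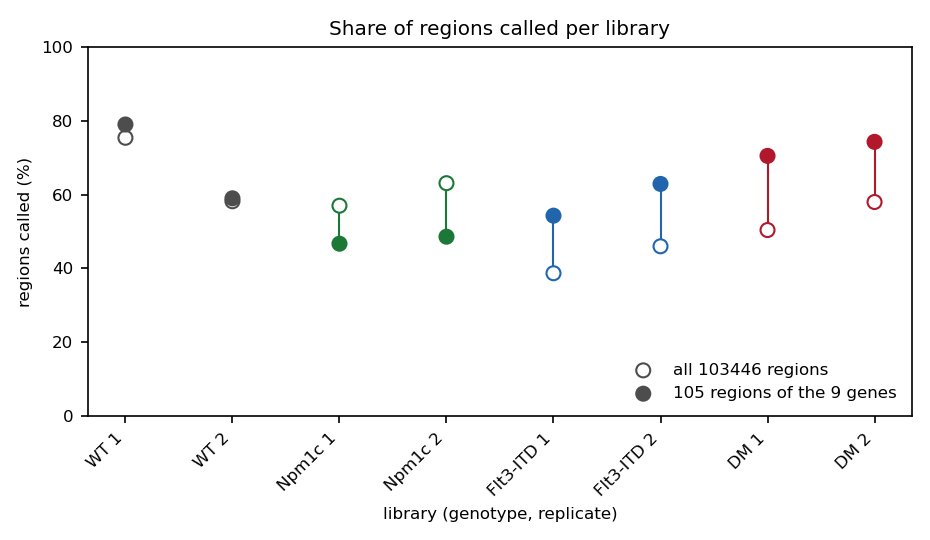
Percentage of regions called in each of the 8 libraries (genotype and replicate on the x axis), for all 103446 regions (open circles) and for the 105 regions of the 9 genes (filled circles). The filled circles lie below the open ones in the Npm1c libraries and above them in the Flt3-ITD and DM libraries.

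Across the 105 regions, Npm1c libraries called fewest and WT replicate 1 called most. WT called 83 and 62 of them, Npm1c 49 and 51, Flt3-ITD 57 and 66, and DM 74 and 78. As a share these were 79.0% and 59.0% in WT, where 75.4% and 58.2% of all regions were called. In Npm1c 46.7% and 48.6% were called, below the 57.0% and 63.1% of all regions. In Flt3-ITD the shares were 54.3% and 62.9% (all regions 38.7% and 46.0%), and in DM 70.5% and 74.3% (all regions 50.4% and 58.0%). The 2 libraries of Npm1c thus lay below their own background and the 4 libraries with the Flt3-ITD allele above it, while the WT libraries lay close to theirs.

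A region is called gained when both libraries of the first genotype call it and neither library of the second does, and lost in the opposite case. No region of the 9 genes was gained in Npm1c against WT, where 2.71% of all regions were gained, and 15 (14.3%) were lost, against 6.26% of all regions. In Flt3-ITD against WT none was gained (0.852% of all regions) and 9 (8.57%) were lost (16.2% of all regions). DM against WT had 15 gained regions (14.3%; 6.93% of all regions) and 17 (16.2%) were lost (20.9% of all regions). These 3 comparisons share the WT libraries. In DM against Npm1c 28 (26.7%) were gained (12.6% of all regions) and 8 lost (19.3% of all regions). In DM against Flt3-ITD 16 were gained (10.6% of all regions) and 3 lost (3.44% of all regions), and in Npm1c against Flt3-ITD 3 were gained (17% of all regions) and 13 lost (4.37% of all regions). Single libraries move some of these counts. Without WT replicate 1 the gains against WT became 29 in DM, 10 in Flt3-ITD and 4 in Npm1c, and the last was 1 without Npm1c replicate 2. Without WT replicate 2 the losses became 30 in Npm1c and 17 in Flt3-ITD. Without Flt3-ITD replicate 2 losses in Flt3-ITD were 17 and gains in Npm1c against Flt3-ITD 8, and without either Flt3-ITD library 1 region was gained against WT. Losses in DM against Flt3-ITD were 5 without either DM library and 9 without Flt3-ITD replicate 1.

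List length moved the comparisons with WT further. When only the widest 43794 peaks of each list were kept, 88 regions of the 9 genes were left, of 72476 in all. In Flt3-ITD against WT 12 (13.6%) were then gained (5.85% of all regions) and 1 lost (6.49% of all regions), in place of 0 and 9. In DM against WT 25 (28.4%) were gained (13.6% of all regions) and 11 lost (15.4% of all regions). In Npm1c against WT 0 were gained (4.72% of all regions) and 8 (9.09%) lost (5.04% of all regions). The direction in Flt3-ITD against WT therefore depended on list length, while in DM against WT gains stayed above the background and in Npm1c against WT gains stayed at 0. Distance to the gene mattered too. Of the 67 regions assigned within 10 kb, 5 (7.46%) were gained in DM against WT (6.93% of all regions) and 4 (5.97%) called in DM alone (5.13% of all regions), both near the background. Gains in DM against Flt3-ITD were 8 (11.9%; 10.6% of all regions), and those against Npm1c 14 (20.9%; 12.6% of all regions).

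**Figure D2:**
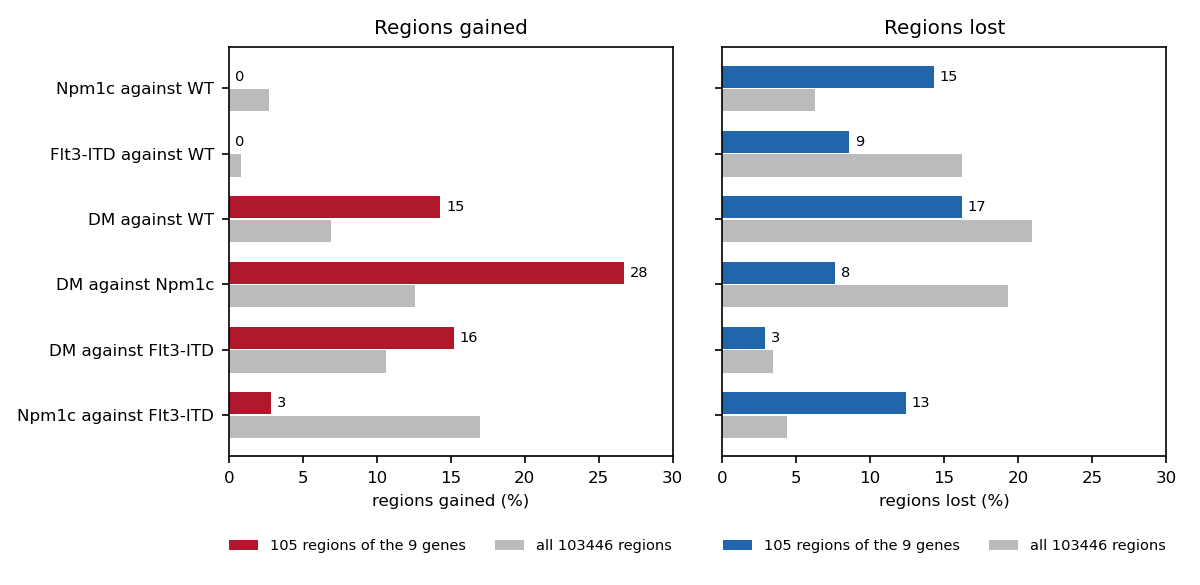
Percentage of regions gained (left) and lost (right) in 6 comparisons of genotypes, for the 105 regions of the 9 genes (coloured bars, with the number of regions beside each) and for all 103446 regions (grey bars). Gains reach 28 regions in DM against Npm1c, and there is no gain in either single mutant against WT.

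Of the 105 regions 31 (29.5%) were called in all 8 libraries (25.3% of all regions) and 11 (10.5%) in 1 library (18.5% of all regions). None was called in Npm1c alone (2.38% of all regions) or in Flt3-ITD alone (0.209%), and none was lacking in WT alone (0.0164%) or in Flt3-ITD alone (1.15%). Start sites did not take part in the changes of calls. The 11 regions that hold an annotated start site of any gene were all called in all 8 libraries, as were 80.1% of all regions with a start site. Of the other 94 regions 20 (21.3%) were called throughout (18.6% of all regions without a start site), and every gained or lost region was among these 94. The changes of calls thus lay away from annotated start sites, and the gene table used holds no exons, so that exon, intron and UTR are not given here.

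**Figure D3:**
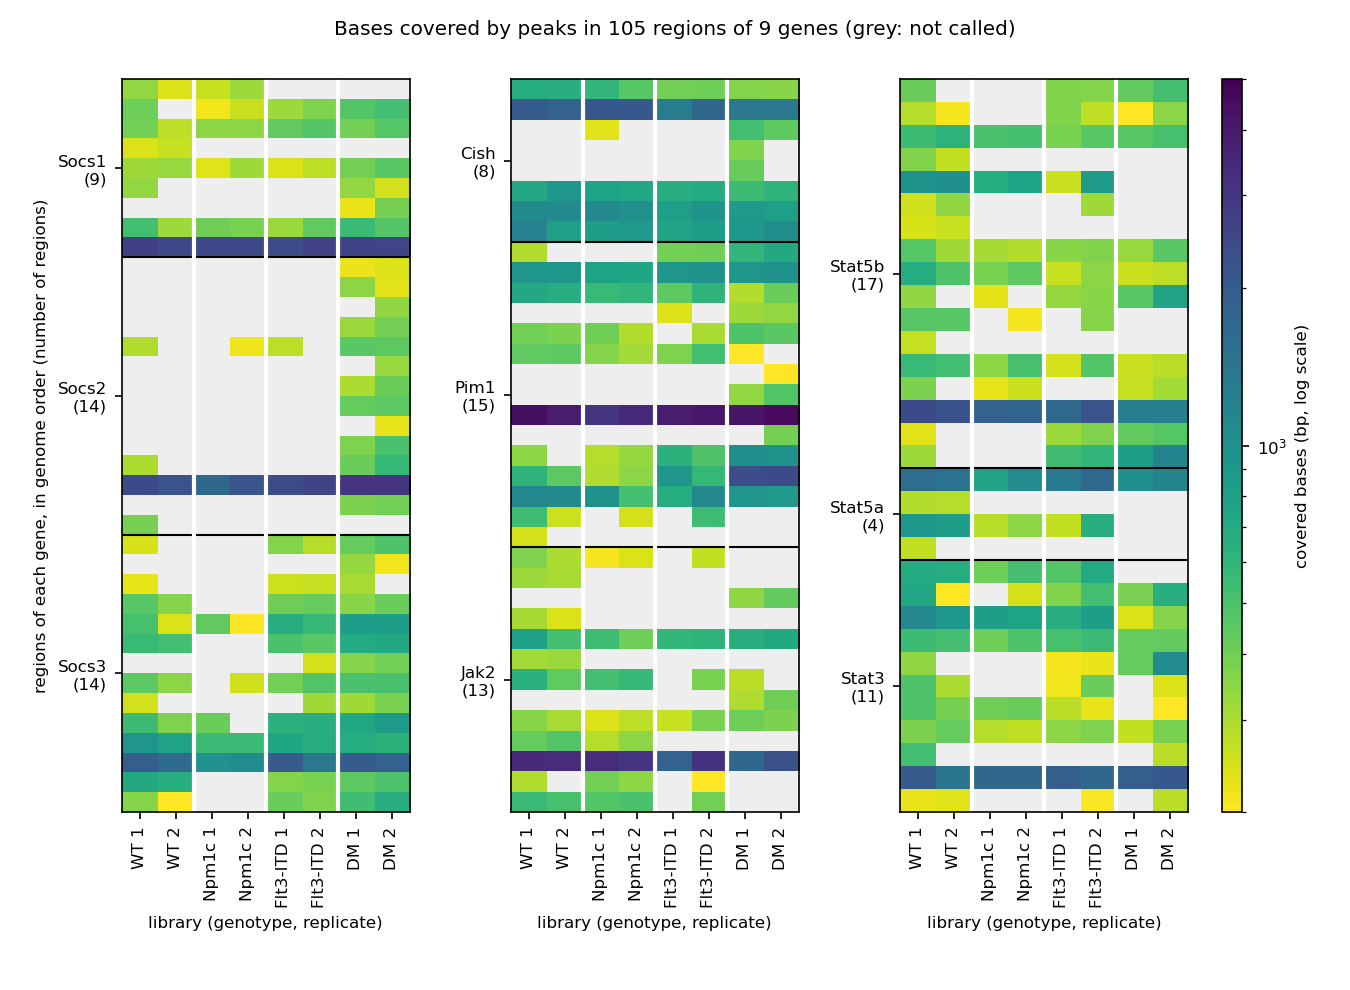
Bases covered by peaks (bp, log colour scale, grey for not called) in the 105 regions, in genome order within each gene, for the 8 libraries on the x axis. Socs2 has a block called in DM alone, Socs3 has gaps in the Npm1c columns, and each gene has at least 1 region called in every library.

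Socs2, an inhibitor of growth hormone and cytokine receptors, had most regions called in DM alone. Its called regions numbered 4 and 1 (WT), 1 and 2 (Npm1c), 2 and 1 (Flt3-ITD) and 10 and 13 (DM), so that the DM libraries did not overlap with the others. The share of all genes with such a split was not counted, and Tshz2, Stambpl1 and Atp2b2, given below, show it too. Of its 14 regions 7 were called in both DM libraries and in none of the other 6, as were 5 regions of 4 other genes, which makes 12 of 105 (11.4%) and 5.13% of all regions. Within the gene these were chr10:95396479-95396892, chr10:95398541-95398990 and chr10:95410834-95411340. To its left, between 16039 and 25986 bp from the gene end, lay chr10:95357799-95358035, chr10:95361259-95361610 and chr10:95367668-95368061, and 25237 bp to its right chr10:95442350-95442767. For a region called in DM alone the two-sided Fisher exact test gave p = 0.0357, and 0.452 after adjustment over all regions, so none passes on its own. The count of 7 was 6 with lists of equal length, 5 without peaks under 250 bp, between 7 and 10 with any single library left out, and 3 within 10 kb of the gene.

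The region over the right end of Socs2 (chr10:95415109-95418274) was called in every library and was broadest in DM. Peaks covered 2434 and 2207 bp of it (WT), 1695 and 2148 (Npm1c), 2369 and 2586 (Flt3-ITD) and 3086 and 3085 (DM). Both DM values lay above the other 6. Covered width was tested in the 26169 regions called in all 8 libraries, 31 of them of these genes, on the log2 scale relative to each library's median (limma, p adjusted over the 26169 regions). That test was added after the data had been seen. It gave a log2 difference of 0.74 (SE 0.10, adjusted p = 0.00129) for DM against WT and 0.82 (SE 0.10, adjusted p = 0.000322) for DM against Npm1c, with n = 2 libraries per genotype. DM against Flt3-ITD did not pass (0.18, SE 0.10, limma adjusted p = 0.264). Flt3-ITD against WT did (0.56, SE 0.10, limma adjusted p = 0.0176), a call that ended without centring (adjusted p = 0.541 by limma). Next to Socs2 on the left, Cradd (59765 bp away) had 10 of 40 regions gained in DM against WT, 9 of them in DM alone, whereas Mrpl42 on the right (63484 bp away) had none of 3. The monocyte and dendritic markers given above had more called regions in the same DM libraries, and their part was not tested.

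**Figure D4:**
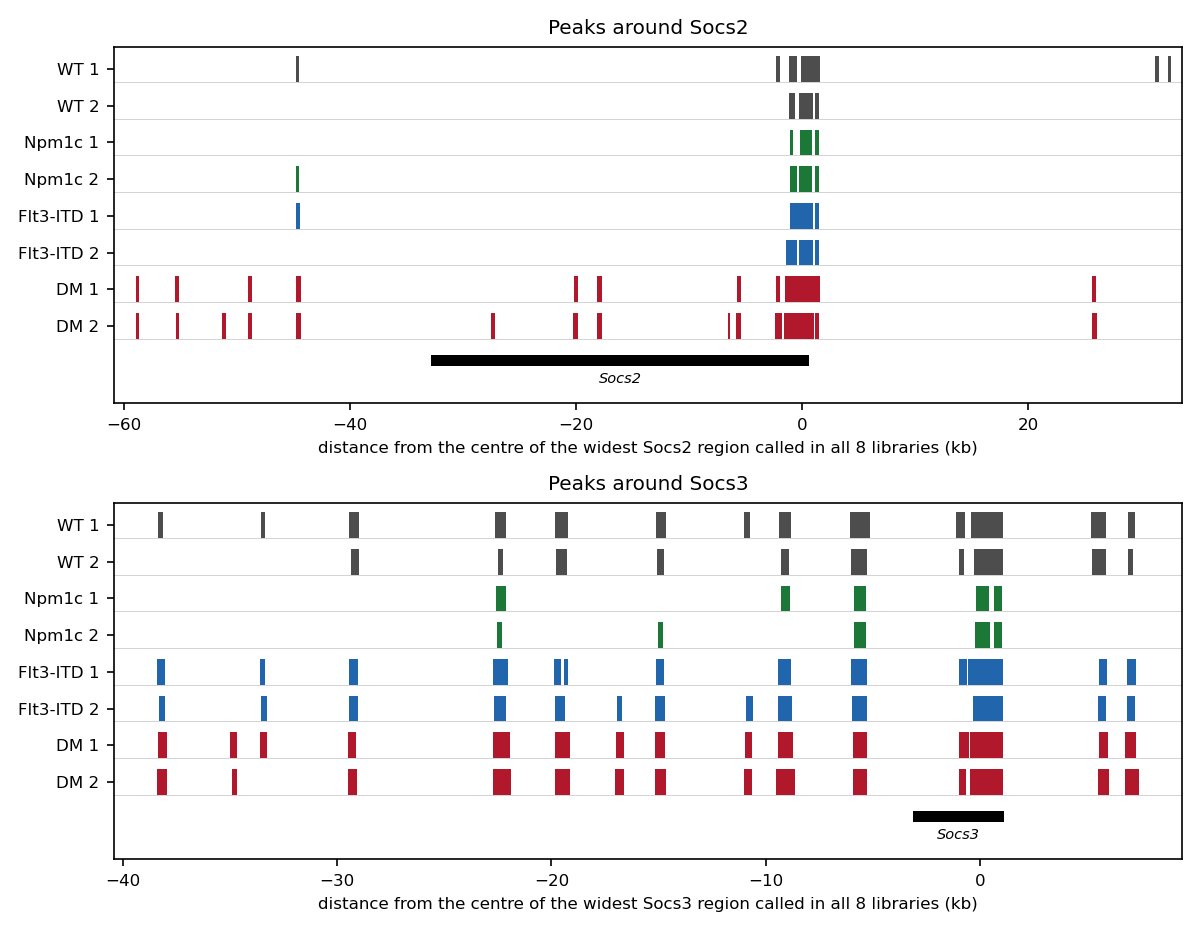
Peaks of the 8 libraries (1 row each, coloured by genotype) around Socs2 (top) and Socs3 (bottom), by distance in kb from the centre of the widest region called in all libraries, with the gene body as a black bar. The scattered peaks within and to the left of Socs2 are in the DM rows, and the Npm1c rows lack peaks around Socs3 that the other rows hold.

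Socs3, the inhibitor of receptors that signal through gp130 and of the G-CSF receptor, showed the opposite kind of pattern, with regions lacking in Npm1c. Of its 14 regions WT called 12 and 9, Npm1c 4 and 4, Flt3-ITD 11 and 13 and DM 14 and 13, and the Npm1c libraries did not overlap with the others. How many of all genes split in this way was not counted. Regions called in all 6 other libraries and in neither Npm1c library numbered 4 at Socs3, and with 1 at Stat5b they made 5 of 105 (4.76%; 1.2% of all regions). They lay at chr11:117939723-117940221 and chr11:117949338-117950091, 26107 and 16365 bp left of the gene, and at chr11:117974402-117975208 and chr11:117975965-117976636, 4469 and 5964 bp to the right, where the start site of this minus-strand gene lies. For each, the Fisher exact p of Npm1c against the other 6 libraries is 0.0357 and the adjusted p 0.997. The number of such Socs3 regions was 4 or 5 with any single library left out.

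The nearest of these regions, chr11:117974402-117975208, was covered over 709 and 662 bp (WT), 0 and 0 (Npm1c), 362 and 380 (Flt3-ITD) and 446 and 489 (DM). The start-site region (chr11:117968109-117970296) was covered over 1881 and 1603 bp (WT), 985 and 1048 (Npm1c), 1986 and 1387 (Flt3-ITD) and 1955 and 1822 (DM). It was called everywhere and was narrowest in both Npm1c libraries. Relative to the library medians it was wider in DM than in Npm1c (log2 difference 1.02, SE 0.19, limma adjusted p = 0.00237) and narrower in Npm1c than in Flt3-ITD (-0.97, SE 0.19, limma adjusted p = 0.00452; -0.62 without Flt3-ITD replicate 1), while the difference of Npm1c from WT did not pass (-0.58, SE 0.19, limma adjusted p = 0.0742). Of the 14 regions 8 were gained in DM against Npm1c and 6 lost in Npm1c against Flt3-ITD. A left-hand region called in all libraries, chr11:117946464-117947314, was covered over 511 and 239 bp (WT), 439 and 203 (Npm1c), 677 and 580 (Flt3-ITD) and 826 and 827 (DM), and was wider in DM than in Npm1c (log2 difference 1.60, limma adjusted p = 0.00774). Without Npm1c replicate 2 that difference was 1.002 (limma adjusted p = 0.0475). Gains against WT were 2, at chr11:117934189-117934522, called in DM alone, and chr11:117952189-117952594, which Flt3-ITD replicate 2 also called.

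Cish, the first of the STAT5-induced inhibitors to be described, changed little in its calls. Its 8 regions were called 5 and 5 times (WT), 6 and 5 (Npm1c), 5 and 5 (Flt3-ITD) and 8 and 6 (DM), and 5 regions were called in all 8 libraries. One region within the gene, chr9:107298008-107298556, was gained in DM against WT and against Flt3-ITD, and was covered over 529 and 444 bp in DM and 234 bp in Npm1c replicate 1. The start-site region with both TTCNNNGAA matches (chr9:107295405-107297575) was covered over 1957 and 1825 bp (WT), 2054 and 2052 (Npm1c), 1294 and 1682 (Flt3-ITD) and 1397 and 1377 (DM). The 4 libraries with the Flt3-ITD allele lay below the 4 without it, and their median widths over all constitutive regions were also lower (between 561 and 675 bp, against 701 to 894 bp). Relative to those medians Flt3-ITD did not differ from WT at an adjusted p under 0.05 (log2 difference 0.10, SE 0.11, limma adjusted p = 0.509). The region was narrower in DM than in Npm1c (log2 difference -0.44, SE 0.11, limma adjusted p = 0.00853), which ended with lists of equal length (adjusted p = 0.0738 by limma), without Npm1c replicate 1 (0.0584) and without DM replicate 2 (0.0589). It did not differ from WT at an adjusted p under 0.05 in Npm1c, where the log2 difference was 0.32 (SE 0.11, limma adjusted p = 0.0745).

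Socs1, the inhibitor induced by interferons, had 9 regions, of which WT called 8 and 6, Npm1c 6 and 6, Flt3-ITD 5 and 5 and DM 7 and 7. One of the 2 regions of the 9 genes that were called without the Flt3-ITD allele and never with it (1.90%; 8.38% of all regions) was chr16:10767172-10767521, 16462 bp left of Socs1. It was covered over 336 and 237 bp in WT and 261 and 319 bp in Npm1c. The other was at Jak2 and is given below. No region of the 9 genes was called with the allele alone (0.566% of all regions). With lists of equal length these counts turned round, to 0 without the allele alone (3.89% of all regions) and 9 with it alone (3.99% of all regions). Without WT replicate 1 the count with it alone was 6, and without Flt3-ITD replicate 2 the count without it alone was 4. The Fisher exact p of such a region is 0.0286 and the adjusted p 0.320 over all regions. For the Npm1c allele with Mx1-Cre no region separated the libraries in either direction (0.156% of all regions were called with it alone and 0.204% without it alone), and the lowest Fisher exact p of the 105 regions was 0.143.

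The region chr16:10781944-10782331, 1671 bp from the gene, was called in DM alone (221 and 388 bp), and chr16:10770693-10770956 in WT alone (237 and 264 bp). With lists of equal length, or without peaks under 250 bp, Socs1 had 0 regions of either pattern and 0 called without the Flt3-ITD allele alone. The start-site region (chr16:10784122-10786937), which holds the overlapping GAAA pairs, had nearly the same covered width in all libraries, between 2408 and 2716 bp. Relative to the library medians it came out wider in Flt3-ITD than in WT (log2 difference 0.43, SE 0.09, limma adjusted p = 0.0221) and in DM than in WT (0.31, SE 0.09, limma adjusted p = 0.0199), and both signs flip without that centring (-0.03 and -0.01).

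Pim1, the survival kinase, had its clearest change just beyond the right end of the gene, downstream of its start sites. The region chr17:29496118-29498640 was covered over 616 and 451 bp (WT), 294 and 350 (Npm1c), 937 and 588 (Flt3-ITD) and 2346 and 2427 (DM). All libraries called it, and both DM values lay far above the other 6. The log2 difference of DM was 2.50 from WT (SE 0.24, limma adjusted p = 0.000249), 1.55 from Flt3-ITD (SE 0.24, limma adjusted p = 0.00397) and 3.02 from Npm1c (SE 0.24, limma adjusted p = 3.83e-05). The Flt3-ITD effect was larger with Npm1c than without it (log2 difference of the effects 2.07, SE 0.34, limma adjusted p = 0.00711), and these calls held without centring and with any single library left out. Flt3-ITD against WT gave 0.96 (SE 0.24, limma adjusted p = 0.0377), a call that ended without centring (adjusted p = 0.153 by limma) and in fits without 1 of 5 libraries, with the highest adjusted p, 0.176, without Flt3-ITD replicate 1.

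Within Pim1, chr17:29494089-29495089 was covered over 346 and 0 bp (WT), 285 and 332 (Npm1c), 628 and 483 (Flt3-ITD) and 1001 and 967 (DM), the highest values again those of DM. The start-site region (chr17:29488843-29493428), the widest of all 105, was covered over 4359 and 3892 bp (WT), 3065 and 3374 (Npm1c), 3851 and 4083 (Flt3-ITD) and 4166 and 4586 (DM). It was wider in DM than in Npm1c (log2 difference 0.57, SE 0.08, limma adjusted p = 0.000512) and narrower in Npm1c than in Flt3-ITD (-0.57, SE 0.08, limma adjusted p = 0.00086). Farther out, chr17:29478317-29478793, 12230 bp left of Pim1, was called in DM alone (338 and 477 bp). In the other direction, chr17:29438194-29438910, 52233 bp left of Pim1 and called in all libraries, was narrower in DM. The log2 difference was -0.69 from WT, -0.64 from Npm1c and -0.75 from Flt3-ITD (SE 0.18, limma adjusted p = 0.0155, 0.0177 and 0.0263). The last call ended without centring (adjusted p = 0.15 by limma), and none held with every single library left out. The region chr17:29442044-29442382 was gained in DM against WT and also called in Flt3-ITD replicate 1. One region, chr17:29502253-29502940, was lost in DM against WT (545 and 254 bp in WT). Of the 15 Pim1 regions the libraries called 11 and 8 (WT), 8 and 9 (Npm1c), 9 and 10 (Flt3-ITD) and 11 and 12 (DM), so that these counts overlap between DM and WT, while at the region beyond the gene end the covered bases do not.

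**Figure D5:**
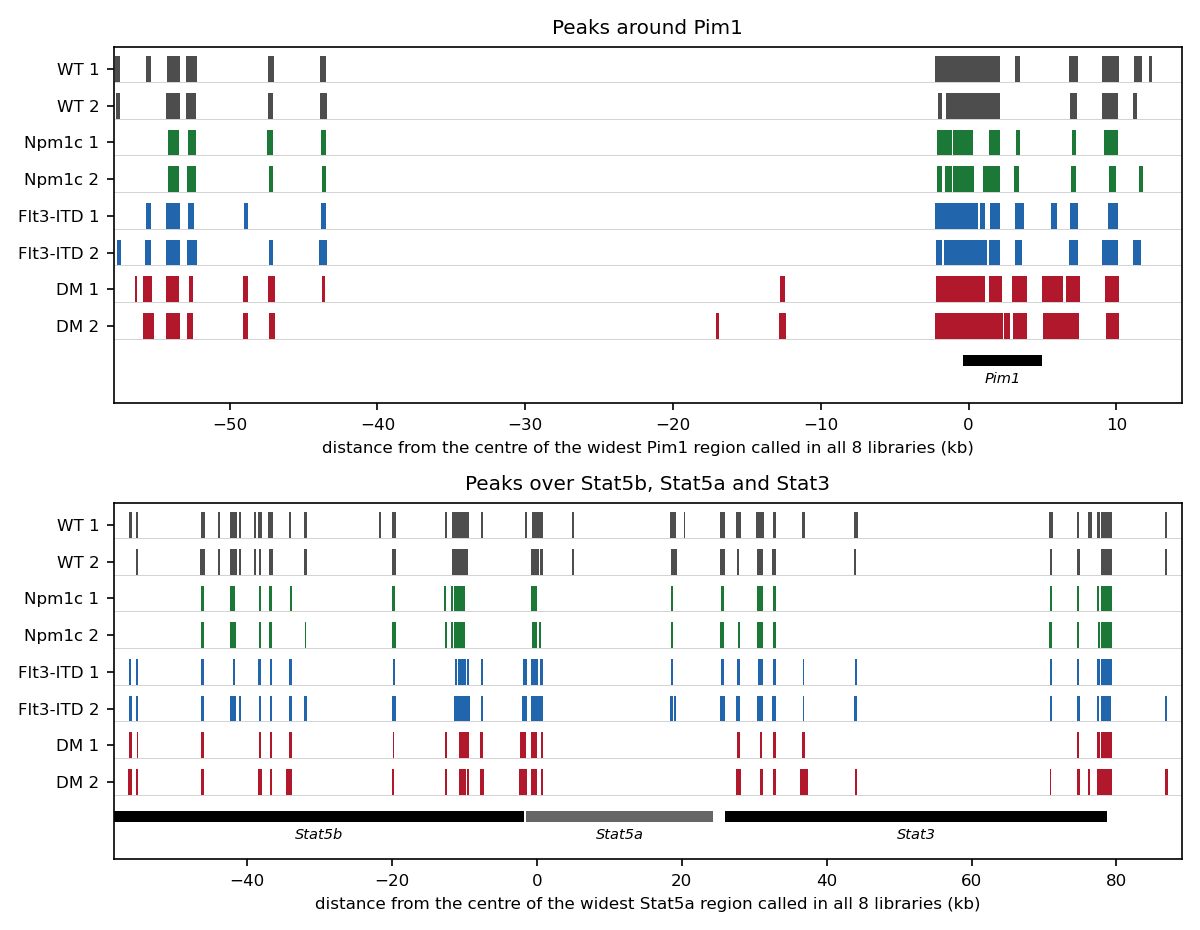
Peaks of the 8 libraries (1 row each, coloured by genotype) around Pim1 (top) and over Stat5b, Stat5a and Stat3 (bottom), by distance in kb from the centre of the widest Pim1 or Stat5a region called in all libraries, with gene bodies as black and grey bars. The broad peak to the right of Pim1 is in the DM rows, and peaks of the WT rows within Stat5b and Stat5a are missing in other rows.

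Jak2, the kinase below the erythropoietin receptor and many other cytokine receptors, lost regions. Called regions numbered 11 and 10 of 13 (WT), 8 and 8 (Npm1c), 3 and 7 (Flt3-ITD) and 6 and 5 (DM), with WT above the other 6 libraries. How many of all genes have WT highest in this way was not counted. In DM 6 were lost against WT (46.2%, against 20.9% of all regions) and 2 gained. Regions called in WT alone numbered 3 at Jak2, namely chr19:29204550-29204906, chr19:29227028-29227334 and chr19:29232785-29233109, of 7 at the 9 genes (6.67%; 3.02% of all regions). Lists of equal length left 1 of the 3 at Jak2, and leaving out peaks under 250 bp left 2.

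The allele of Flt3 split the libraries at 1 region of Jak2, chr19:29249802-29250317, which lies 1744 bp before the gene. It was covered over 428 and 482 bp in WT and 286 and 349 bp in Npm1c and was not called in the 4 libraries with Flt3-ITD. Lost in DM against WT but called in Flt3-ITD replicate 2 were chr19:29203345-29203721 and, within the gene, chr19:29271075-29271650 (557 and 512 bp in WT, 476 and 506 in Npm1c, 397 in that library). DM alone called chr19:29209942-29210376 and chr19:29239510-29239910, 41644 and 12093 bp from the gene. Of regions called in all libraries, chr19:29241520-29241926 was wider in DM than in Npm1c (log2 difference 0.745, SE 0.162, limma adjusted p = 0.0051) and WT (0.582, SE 0.162, limma adjusted p = 0.02). Also wider in DM than in Npm1c was chr19:29227810-29228656 (0.664, SE 0.196, limma adjusted p = 0.0214). Without centring the call against WT and the last call ended (adjusted p = 0.343 and 0.103 by limma). The start-site region (chr19:29250909-29254481) was covered over 3382 and 3309 bp (WT), 3331 and 3044 (Npm1c), 1810 and 3103 (Flt3-ITD) and 1693 and 2240 (DM). The 2 Flt3-ITD libraries lay apart, replicate 1 near the DM values and replicate 2 near the others. DM against WT did not pass (log2 difference -0.45, SE 0.19, limma adjusted p = 0.0806). DM against Npm1c did (-0.58, SE 0.19, limma adjusted p = 0.0297), a call that ended with lists of equal length (adjusted p = 0.0927 by limma) and without Npm1c replicate 1 (0.154), Npm1c replicate 2 (0.0527) or DM replicate 1 (0.158).

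Stat5b, Stat5a and Stat3 lie side by side on chromosome 11, with 347 bp between Stat5b and Stat5a and 1637 bp between Stat5a and Stat3, so that their regions share 1 stretch of the genome. STAT5A and STAT5B are close paralogues that serve cytokine receptors and FLT3-ITD, and STAT3 serves gp130 and the G-CSF receptor. At Stat5b 17 and 11 of 17 regions were called (WT), 8 and 8 (Npm1c), 11 and 13 (Flt3-ITD) and 11 and 11 (DM). At Stat5a the counts were 4 and 3 of 4 (WT), 2 and 2 (Npm1c), 2 and 2 (Flt3-ITD) and 1 and 1 (DM). At Stat3 they were 11 and 9 of 11 (WT), 6 and 7 (Npm1c), 9 and 10 (Flt3-ITD) and 6 and 10 (DM). None of the 32 was gained against WT in any mutant, while losses in DM were 5 at Stat5b, 2 at Stat5a and 1 at Stat3, near the 20.9% of all regions. With lists of equal length gains in DM against WT were 3 of 13 at Stat5b and 1 of 10 at Stat3, and without peaks under 250 bp 1 of 17 at Stat5b.

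The 3 regions of the 9 genes lacking in DM alone (2.86%; 2.78% of all regions) all lay in this stretch, 1 at each gene, and without Flt3-ITD replicate 1 they numbered 5. Within Stat5b, chr11:100818383-100819380 was covered over 975 and 988 bp (WT), 685 and 768 (Npm1c) and 260 and 853 (Flt3-ITD). Within Stat5a, chr11:100879200-100880106 was covered over 894 and 828 bp (WT), 282 and 348 (Npm1c) and 269 and 665 (Flt3-ITD). Just outside Stat3, 409 bp from its end, chr11:100886049-100886746 was covered over 686 and 685 bp (WT), 407 and 517 (Npm1c) and 471 and 695 (Flt3-ITD). Neither DM library had a peak in any of them. WT alone called chr11:100816732-100817100 and chr11:100821784-100822044 in Stat5b and chr11:100865655-100865943 in Stat5a. Lacking in Npm1c alone was chr11:100805442-100805808 in Stat5b, where DM covered 200 and 348 bp. With lists of equal length no region of Stat5b or Stat5a was called in WT alone or lacking in Npm1c alone.

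Constitutive regions, those called in all 8 libraries, were narrower in DM than in WT at several places of this stretch. At 3 of them the calls against WT held without centring and with any single library left out. A further one, chr11:100840776-100841392 within Stat5b, gave a log2 difference of -0.71 from WT (SE 0.247, limma adjusted p = 0.0456). That call did not hold with every single library left out. The 3 others follow. Within Stat3, chr11:100891137-100892236 was covered over 1100 and 923 bp (WT), 820 and 774 (Npm1c), 677 and 834 (Flt3-ITD) and 241 and 361 (DM). The log2 difference of DM was -1.45 from WT (SE 0.18, limma adjusted p = 0.000721), -1.30 from Npm1c (SE 0.18, limma adjusted p = 0.000454) and -1.48 from Flt3-ITD (SE 0.18, limma adjusted p = 0.00112). The start-site region of Stat5b (chr11:100848939-100851605) was covered over 2427 and 2231 bp (WT), 1808 and 1768 (Npm1c), 1674 and 2190 (Flt3-ITD) and 1270 and 1262 (DM). DM lay below all others, by -0.55 from WT (SE 0.105, limma adjusted p = 0.0044) and -0.73 from Flt3-ITD (SE 0.105, limma adjusted p = 0.00271) on the log2 scale. The difference from Npm1c was -0.37 (SE 0.105, limma adjusted p = 0.018). That call ended with lists of equal length (-0.035, adjusted p = 0.774 by limma). The third, chr11:100823696-100824373 within Stat5b, was narrower in DM than in WT by a log2 difference of -0.78 (limma adjusted p = 0.00542). It was covered over 678 and 487 bp (WT), 384 and 443 (Npm1c), 262 and 351 (Flt3-ITD) and 258 and 276 (DM). DM against Flt3-ITD did not pass there (-0.32, SE 0.156, limma adjusted p = 0.199).

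Other regions of the stretch did not follow that direction. The start-site region of Stat5a (chr11:100859984-100861672) was covered over 1564 and 1473 bp (WT), 762 and 1064 (Npm1c), 1310 and 1667 (Flt3-ITD) and 989 and 1149 (DM), and was narrower in Npm1c than in Flt3-ITD (log2 difference -0.98, SE 0.15, limma adjusted p = 0.00122). It was also narrower in Npm1c than in WT (-0.56, SE 0.15, limma adjusted p = 0.037), a call that ended without centring (adjusted p = 0.0535 by limma) and, among others, without Npm1c replicate 1 (0.204). The start-site region of Stat3 (chr11:100938174-100940242) was covered over 1981 and 1443 bp (WT), 1695 and 1681 (Npm1c), 1887 and 1697 (Flt3-ITD) and 1922 and 2069 (DM), where WT and DM overlap. Relative to the library medians it came out wider in DM than in WT (log2 difference 0.56, limma adjusted p = 0.00956), a call that ended without centring (adjusted p = 0.216 by limma) and without WT replicate 2 (0.0723). At the end of Stat5b that faces Stat5a, chr11:100858323-100859505 was covered over 322 and 0 bp (WT), 0 and 0 (Npm1c), 534 and 600 (Flt3-ITD) and 825 and 1175 (DM). It was gained in DM against Npm1c and lost in Npm1c against Flt3-ITD.

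Over the 31 constitutive regions of the 9 genes, 11 were wider and 6 narrower in DM than in WT at a limma adjusted p under 0.05, where 21.6% of all 26169 regions were wider and 17.3% narrower. In Npm1c against Flt3-ITD 15 were narrower (17.8% of all regions) and none wider (17.8% of all regions), with a median log2 difference of -0.36 for the 31 and -0.03 for all. In DM against Npm1c 10 were wider (20.1%) and 6 narrower (25.2%), with a median log2 difference of 0.365 for the 31 and -0.01 for all. In Flt3-ITD against WT 7 were wider (7.70%) and none narrower (5.13%), in DM against Flt3-ITD 1 was wider (4.29%) and 4 narrower (9.14%), and in Npm1c against WT none was wider (8.77%) and 1 narrower (5.46%). The effect of Flt3-ITD with Npm1c minus that without it was positive at 1 region (2.9%) and negative at 3 (10.7%). At those 3 the effect without Npm1c was 0.039 (Stat3), 0.105 (Cish) and 0.18 (Stat5b) on the log2 scale. With Npm1c it was -1.305, -0.437 and -0.369 in the same order. The library medians ranged from 561 bp (Flt3-ITD replicate 1) to 894 bp (WT replicate 1), and leaving out the centring moved the median difference of all regions by -0.46 on the log2 scale for Flt3-ITD against WT and -0.33 for DM against WT. Without centring the regions wider than in WT fell from 7 to 0 in Flt3-ITD and from 11 to 2 in DM, and those narrower in Npm1c than in Flt3-ITD from 15 to 5. Without WT replicate 2 or without Flt3-ITD replicate 1 no region was wider in Flt3-ITD than in WT.

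The wider pathway was read from 53 other genes (kinases, STATs, further SOCS genes, phosphatases, PIAS genes, receptors and targets) with 506 regions. In DM against WT 44 of their regions (8.70%; 6.93% of all regions) were gained, at 22 genes, and 77 (15.2%; 20.9%) lost, at 30 genes. Most gains were at Lifr (5 of 17), the LIF receptor, Ccnd1 (4 of 21), encoding cyclin D1, Dusp5 (4 of 24), a MAP kinase phosphatase, and Ptpn1 (4 of 27), a tyrosine phosphatase that acts on JAK2. Most losses were at the kinase gene Jak1 (12 of 37), the adaptor Gab2 (6 of 16), the receptor Kit (6 of 17) and Bcl2l1 (5 of 16), encoding BCL-XL. In Npm1c against WT 10 (1.98%; 2.71% of all regions) were gained, 4 of them at Socs6, and 25 (4.94%; 6.26%) lost, 3 each at Il6ra, Sh2b3 and Ptpn11. In Flt3-ITD against WT 9 (1.78%; 0.852% of all regions) were gained, 2 each at Ccnd1 and Ptpn1, and 47 (9.29%; 16.2%) lost, 7 of them at Jak1. In the remaining comparisons gains and losses numbered 87 (17.2%; 12.6% of all regions) and 74 (14.6%; 19.3%) in DM against Npm1c. They were 49 (9.68%; 10.6%) and 21 (4.15%; 3.44%) in DM against Flt3-ITD, both near the background, and 52 (10.3%; 17%) and 35 (6.92%; 4.37%) in Npm1c against Flt3-ITD.

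The Flt3-ITD allele split the 8 libraries at 31 regions of these 53 genes. Called without it alone were 26 (5.14%, below the 8.38% of all regions), of which 7 lay in Jak1, 5 at Gab2, 3 at Socs6 and 2 at Kit, with others at Stat2, Stat4, Csf3r, Ptpn2, Ptpn6, Il3ra, Socs4, Ghr and Myc. Called with it alone were 5 (0.988%; 0.566% of all regions), 1 each at Jak1, Id1, Flt3, Ccnd1 and Myc. In Jak1 the widest of those called without the allele was chr4:101252808-101255484, within the gene. None of them passed adjustment over all regions, as above.

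Genes with a similar pattern were ranked by the share of their regions called in each library, among 7104 other genes with at least 5 regions. Closest to Socs2 were Tshz2 (mean absolute difference in share over the 8 libraries 0.0491, 20 regions), Stambpl1 (0.0536, 7 regions) and Atp2b2 (0.0595, 21 regions). Tshz2, a homeobox and zinc finger gene, had between 10% and 30% of its regions called outside DM and 70.0% and 85.0% in DM, where Socs2 had between 7.14% and 28.6% and 71.4% and 92.9%. Closest to Cish were Osgin1 (0.0469, 8 regions), Smug1 (0.0503, 9 regions), encoding a uracil-DNA glycosylase, and Stra8 (0.0531, 5 regions).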

How the data were processed

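Nuclei of lineage-negative bone marrow cells were tagmented for ATAC-seq, and 2 WT neutrophil samples are not analysed here. The deposited peak lists were made by the authors with Bowtie2 and MACS2 on mm10, per the submitters' processing notes; versions, read numbers, duplicate removal and any Tn5 shift are not given in the sources used here. Each list holds positions alone, so no peak height, score or read depth could be used, and longer lists can come from deeper sequencing. Coordinates are 1-based in mm10 (GRCm38).

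Regions were merged and assigned as the report states, with genes from RefSeq (GRCm38.p6). A region was called in a library with at least 1 peak in it. Calls with and without an allele, and of 1 genotype against the other 6 libraries, were tested by two-sided Fisher exact tests with Benjamini-Hochberg adjustment over all 103446 regions. At 4 against 4 libraries the lowest possible p is 0.0286, and at 2 against 6 it is 0.0357. No region of any gene passed after adjustment. The unadjusted p was under 0.05 for 9250 regions for Flt3-ITD, 372 for Npm1c with Mx1-Cre and 8180 for DM against the rest, and no other tool was run on the calls. Covered width was fitted with limma 3.58.1 (R 4.3.3) after the data had been seen, and the calls and the fit were tested on simulated data. The replicates are named biological with no animals given, so p-values measure only the spread between these samples, which may be technical.

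The members, the 53 further pathway genes and the marker lists were chosen with earlier results of these data known. Regions could be named if separated by an allele, called or lacking in DM alone, among the widest 8 gained or lost per gene and comparison, or the widest of a gene called in all 8 libraries. Other pathway genes were named as up to 4 per comparison and direction with most changed regions, or with a region separated by the Flt3-ITD allele, and alike genes as the 3 that differed least in share called. The patterns of WT alone and of lacking in Npm1c alone, and other regions named for their width, were chosen after their values were seen. Alternatives were merging distance, gene distance, minimum peak width, equal list length, 50% coverage of a region, a replicate block and each library left out.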

Additional observations from a re-analysis of the deposited data

Results flagged for a closer look

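Called regions of each gene, and of all members together, were checked in groups of 4 libraries with or without the Flt3-ITD or the Npm1c allele. The check compared the gap between a library and its nearest neighbour with the range of the 4 counts. Of 40 such sets, which share the same libraries, 3 were flagged. In each flagged set the other 3 counts were equal, so that gap and range are the same however small the difference. These flags therefore cannot show that a library lies far from the others. The chance rate of about 1 in 20 cannot be applied to such tied counts. All 3 flagged sets were in groups set by the Flt3-ITD allele. Stat5b had 13 called regions in Flt3-ITD replicate 2 and 11 in each of the other libraries with the allele. Socs1 had 8 in WT replicate 1 and 6 in each other library without it. Cish had 6 in Npm1c replicate 1 and 5 in each other library without it.

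The effect of Flt3-ITD on covered width differed between the backgrounds with and without Npm1c at 4 regions (interaction term in limma, adjusted over 26169 regions, 2 libraries per genotype). At the Pim1 region chr17:29496118-29498640 the difference of effects was 2.07 on the log2 scale (adjusted p = 0.00711). At the Stat3 region chr11:100891137-100892236 it was -1.34 (adjusted p = 0.0113 in limma), and without centring on library medians -1.01 (adjusted p = 0.114). At the start-site region of Cish it was -0.54 (adjusted p = 0.0426 in limma) and at that of Stat5b -0.55 (adjusted p = 0.0397 in limma). The last 2 calls ended without centring (adjusted p = 0.476 and 0.468 in limma), with the replicate block (0.0636 and 0.0607), with lists of equal length (0.186 and 0.344) and in 6 of 8 fits with 1 library left out (highest 0.136 and 0.135).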

How the results depend on the processing

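Peak lists without read counts limit every comparison to calls and widths, and no call of a single region passed adjustment in the Fisher tests, whereas widths of single regions did in limma. Of 408 counts under alternatives, 308 stayed within 1.5 times the main count; of 689 widths of single regions, 517 kept their call and direction, 169 lost the call and 3 reversed. Where no cause is named below, the cause was not tested.

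With genes within 10 kb, which leaves 67 regions and brings gains in DM against WT (7.46%) and regions in DM alone (5.97%) near the shares of all regions (6.93% and 5.13%), losses against WT were 9 in Npm1c, 4 in Flt3-ITD and 11 in DM, gains in DM were 5 against WT, 14 against Npm1c and 8 against Flt3-ITD, losses in Npm1c against Flt3-ITD 8, regions without the Flt3-ITD allele alone 1, in DM alone 4, and called regions in DM 45 and 50. With lists of equal length, losses against WT were 8 in Npm1c, 1 in Flt3-ITD and 11 in DM, and gains 12 in Flt3-ITD and 25 in DM. Losses in DM against Flt3-ITD were then 7, gains and losses in Npm1c against Flt3-ITD 0 and 23, regions with the Flt3-ITD allele alone 9 and without it alone 0, regions without Npm1c alone 1, and called regions 47 and 41 in WT and 29 in Npm1c replicate 2. Widths with those lists gave 2 narrower in Npm1c than in WT, 6 wider in DM than in WT, 1 narrower in DM than in Npm1c, 0 wider in DM than in Flt3-ITD and 0 interactions either way. Without peaks under 250 bp, gains and losses in Flt3-ITD against WT were 3 and 5, and regions with and without the allele alone 2 and 1. With at least 50% of the region covered for a call, gains in Flt3-ITD against WT were 3, losses in DM 15 against Npm1c and 5 against Flt3-ITD, regions with the allele alone 3 and regions lacking in DM alone 5. Merging peaks up to 100 bp apart moved no count by over 1.5 times.

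Without centring, narrower regions were 3 in Npm1c and 2 in Flt3-ITD against WT, wider ones 0 in Flt3-ITD and 2 in DM against WT, narrower ones 2 in DM against Flt3-ITD, wider and narrower ones 1 and 5 in Npm1c against Flt3-ITD, and narrower interactions 0. The 3 reversed widths were the Socs1 start region in Flt3-ITD (-0.032, main 0.43) and DM (-0.013, main 0.31) against WT and the Pim1 start region in Flt3-ITD against WT (-0.055, main 0.41).

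Replicate numbers did not pair the libraries (correlations of replicate differences between -0.0399 and 0.0387). With the replicate block, regions of the Flt3-ITD allele at an unadjusted p under 0.05 went from 2 to 0 (lowest possible p 0.0556), wider regions in DM against Flt3-ITD were 2 and narrower interactions 1.

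With each library left out, gains ranged from 0 to 4 in Npm1c, 0 to 10 in Flt3-ITD and 15 to 29 in DM against WT, from 31 to 37 in DM against Npm1c, 18 to 22 in DM against Flt3-ITD and 3 to 8 in Npm1c against Flt3-ITD. Losses ranged from 15 to 30, 9 to 17, 17 to 22, 8 to 10, 3 to 9 and 14 to 17 in the same order. Regions with the Flt3-ITD allele alone ranged from 0 to 6 and without it from 2 to 4, with or without Npm1c alone from 0 to 1, in DM alone from 12 to 17 and lacking in DM alone from 3 to 5. Wider regions ranged from 0 to 7 in Flt3-ITD and 5 to 12 in DM against WT, 7 to 13 in DM against Npm1c, and 1 to 2 in DM against Flt3-ITD and for the interaction. Narrower ones ranged from 0 to 3 in Npm1c and 3 to 7 in DM against WT, 1 to 7 in DM against Npm1c, 2 to 5 in DM against Flt3-ITD, 6 to 16 in Npm1c against Flt3-ITD and 1 to 4 for the interaction.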
